A study of Mus musculus with 8 samples.

Results

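Activity-dependent immediate early genes were followed in the P3 cortex of mice that lack the chromatin remodeling subunits BAF155 and BAF170. The 10 genes, Fos, Fosb, Junb, Egr1, Egr2, Egr3, Arc, Npas4, Nr4a1 and Ier2, were taken from the count tables by matching Ensembl identifiers to these symbols, out of 48709 genes listed. RNA sequencing covered 4 dcKO_hGFAP-Cre (mutant) and 4 control cortices (dorsal telencephalon), numbered 1 to 4 by replicate in each group, at postnatal day 3, all on a C57BL/6J background. In dcKO_hGFAP-Cre mice both alleles of the BAF155 gene (Smarcc1) and of the BAF170 gene (Smarcc2) are floxed, and the hGFAP-Cre transgene, Cre recombinase under the promoter of human GFAP, deletes them in radial glia of the dorsal telencephalon and so in their progeny. According to the methods, control animals also carry hGFAP-Cre, with a floxed and an intact copy of each gene, although the sample labels name them WT. The dcKO_hGFAP-Cre mice die soon after birth, and the sources used here do not say whether animals were littermates or how long dissection took.

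Immediate early genes are transcribed within minutes of a stimulus and need no new protein synthesis to start. In neurons, calcium entry and ERK signaling activate factors already bound at their promoters, among them CREB, SRF with its ELK partners and MEF2. Many of the products are transcription factors that switch on later response genes, whereas Arc acts at synapses. In tissue, their transcript levels depend on which cells are present and on the state of those cells in the minutes before the RNA was taken.

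Total counts per sample ranged from 21126713 to 32110285, so that the 3 counts taken as the limit of detection stand for 0.093 to 0.142 CPM, the count scaled to library size. All other CPM values use library sizes normalized by the TMM method. All 10 genes passed the low count filter and were tested among 16525 genes in all. Smarcc1 was at 159 ± 11.2 CPM in control and 81.2 ± 5.9 CPM in dcKO_hGFAP-Cre cortex, and Smarcc2 at 483 ± 14.7 and 283 ± 28.2 CPM (SD, n = 4 each), each lower in every mutant. Summed CPM of 8 cortical excitatory neuron markers was 1790 to 1970 in controls and 957 to 1140 in mutants, and 6 of the 8 were lower. These markers of the labelled tissue were present in all samples. Of 8 interneuron markers 7 were higher, and their sum was 613 to 642 CPM in controls and 950 to 1020 CPM in mutants. Of 8 markers of striatal projection neurons 4 were higher, and the summed level was 302 to 384 CPM in controls and 809, 437, 819 and 559 CPM in mutants 1 to 4. Of 6 markers of choroid plexus epithelium 2 were higher, summing to 4.15 to 13.6 CPM in controls and to 616, 1180, 21 and 4.59 CPM in the mutants. The markers counted as lower or higher are those called by edgeR at an adjusted p under 0.05, which called 18.9% of all genes lower and 18.6% higher. In bulk tissue a change in the number of cells of a type and a change in RNA per cell cannot be told apart.

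In dcKO_hGFAP-Cre cortex 5 of the 10 genes rose, namely Fos, Fosb, Egr1, Arc and Npas4, and none fell (edgeR, quasi-likelihood, adjusted by Benjamini-Hochberg over 16525 genes). These 5 rose between 1.72-fold and 3.28-fold, and in each of them all 4 mutants lay above all 4 controls. Junb, Egr2, Egr3, Nr4a1 and Ier2 did not pass the threshold. The same test called 37.5% of all genes in either direction and 18.6% higher in the mutant, and 16.7% of all genes had every mutant above every control. The median log2 fold change was 0.57 over the 10 genes and 0.02 over all genes tested. At an unadjusted p under 0.05 the counts for the 10 genes were also 5 higher and 0 lower, where 24.2% of all genes were higher and 23.0% lower. DESeq2 and limma-voom each gave 5 higher and 0 lower as well, where 15.7% and 18.4% of all genes were called higher. The opposite direction held 18.9% of all genes by edgeR, and in 34.4% of all genes the groups did not overlap either way, 17.7% with the mutants lower.

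**Figure D1:**
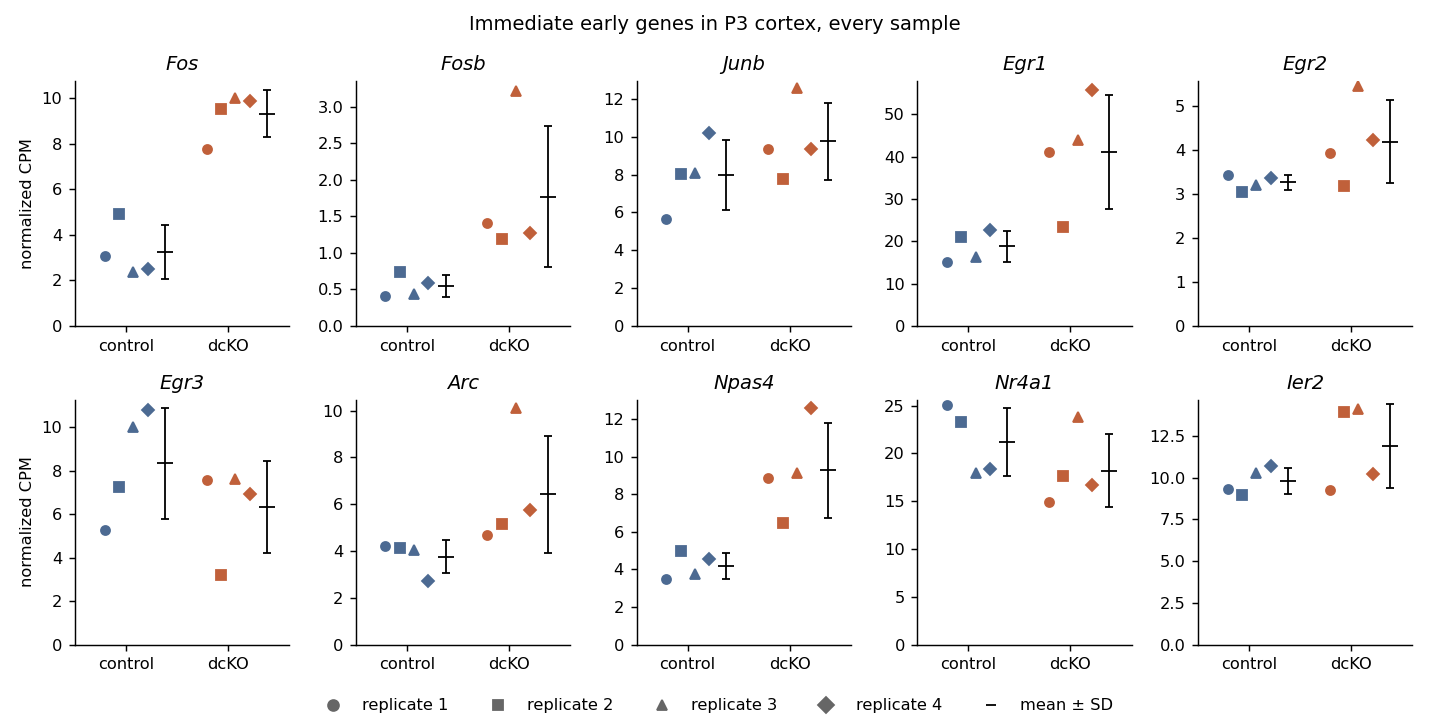
Normalized CPM (vertical axes, each starting at 0) of the 10 genes in 4 control (blue) and 4 dcKO_hGFAP-Cre (orange) cortices, with the marker shape giving the replicate and the bar giving mean ± SD. In Fos, Fosb, Egr1, Arc and Npas4 the 4 mutants lie above the 4 controls, whereas the groups overlap in the other 5 genes.

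Sequences upstream of the genes are shown because induction of these genes is known to run through promoter elements, and because Fos and Fosb rose where Junb, Nr4a1 and Egr2 did not pass the threshold. They come from RefSeq (GRCm38.p6, the assembly of mm10), which gave windows for 6 of the 10 genes (Fos, Fosb, Junb, Egr2, Npas4 and Nr4a1) and none for Egr1, Egr3, Arc and Ier2. The 250 bases before a transcription start were searched on both strands, and capitals mark TGACG, the core of the cAMP response element that CREB binds (CGTCA when it lies on the other strand), or a CArG box, the element of SRF. The windows lie at chr12:85473640-85473889, plus strand for Fos, chr7:19310052-19310295, minus strand for Fosb, chr8:84978749-84978998, minus strand for Junb, chr15:101266596-101266845, plus strand for Nr4a1 and chr10:67537316-67537565, plus strand for Egr2. RefSeq lists 5 windows for Egr2, and the first of those free of exons was used. Those of Nr4a1 and Egr2 fall in introns of longer annotated transcripts of the same gene. The window of Npas4 lies in annotated exons and is not printed, and 6 exonic bases were left off that of Fosb.
Fos: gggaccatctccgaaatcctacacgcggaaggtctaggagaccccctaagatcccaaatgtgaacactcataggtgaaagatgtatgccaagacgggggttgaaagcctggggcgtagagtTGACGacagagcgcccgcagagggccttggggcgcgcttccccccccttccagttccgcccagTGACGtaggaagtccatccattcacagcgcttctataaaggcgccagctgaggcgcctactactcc
Fosb: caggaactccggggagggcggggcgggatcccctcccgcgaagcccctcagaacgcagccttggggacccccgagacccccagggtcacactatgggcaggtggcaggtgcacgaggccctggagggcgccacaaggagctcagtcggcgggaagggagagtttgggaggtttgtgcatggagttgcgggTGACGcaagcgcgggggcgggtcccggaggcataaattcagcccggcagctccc
Junb: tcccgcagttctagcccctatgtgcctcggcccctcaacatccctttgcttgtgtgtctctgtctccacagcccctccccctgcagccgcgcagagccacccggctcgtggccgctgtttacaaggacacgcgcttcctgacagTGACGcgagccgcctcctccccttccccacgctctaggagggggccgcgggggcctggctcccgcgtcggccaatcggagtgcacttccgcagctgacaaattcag
Nr4a1: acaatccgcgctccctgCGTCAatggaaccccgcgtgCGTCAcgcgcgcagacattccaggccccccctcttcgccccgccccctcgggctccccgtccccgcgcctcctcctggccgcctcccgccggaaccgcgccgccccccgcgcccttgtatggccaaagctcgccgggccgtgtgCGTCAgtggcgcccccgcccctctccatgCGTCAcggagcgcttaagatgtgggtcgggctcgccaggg
Egr2: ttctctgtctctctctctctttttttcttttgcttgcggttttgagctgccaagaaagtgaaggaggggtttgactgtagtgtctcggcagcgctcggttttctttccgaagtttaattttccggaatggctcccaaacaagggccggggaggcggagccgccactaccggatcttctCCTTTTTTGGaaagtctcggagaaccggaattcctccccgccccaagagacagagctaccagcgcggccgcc

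TGACG was found in 5 of the 6 windows, all but that of Egr2, and in 17.9% of 27025 windows, the first listed for each gene of the table. It starts 129 and 66 bases before the start of Fos, 60 bases before that of Fosb and 106 bases before that of Junb. Nr4a1 holds it at 233, 213, 69 and 40 bases, and Npas4 at 179 and 169 bases. The CArG box was found in Egr2 alone, 72 bases before the start, and in 1.4% of all windows. The full element TGACGTCA (which contains TGACG), the AP-1 site TGANTCA, the EGR site GCGTGGGCG and the NR4A site AAAGGTCA were in none of the 6 windows and in 1.62%, 6.87%, 0.54% and 1.31% of all windows. The printed stretches of Fos and Fosb, which rose, and of Junb and Nr4a1, which did not pass the threshold, thus all hold TGACG. A match is only a match of letters, and elements farther than 250 bases from the start were not searched.

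Fos and Fosb encode partners of Jun proteins in the AP-1 transcription factor, and both rose. Fos (ENSMUSG00000021250, mm10 chromosome 12 from 85473890 to 85477273) was at 3.08, 4.93, 2.39 and 2.50 CPM in controls 1 to 4 and at 7.78, 9.53, 9.996 and 9.87 CPM in mutants 1 to 4. The lowest mutant was thus well above the highest control, and replicates 2 to 4 of the mutant lay close together. The means were 3.23 ± 1.18 and 9.30 ± 1.03 CPM (SD, n = 4 each), a 2.92-fold rise (log2 fold change 1.54, SE of the estimate 0.21, adjusted p = 0.000196 by edgeR). Over the 18 alternative fits, the log2 fold change of Fos stayed between 1.42 and 1.81 and past the threshold in all.

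Fosb (ENSMUSG00000003545, chromosome 7 from 19302696 to 19310051), the least abundant of the 10 per length, was at 0.414, 0.739, 0.432 and 0.590 CPM in controls 1 to 4 and at 1.41, 1.19, 3.21 and 1.27 CPM in mutants 1 to 4. The counts behind these values were 9 to 17 in controls and 28 to 94 in mutants, so each carries a large counting error. Replicate 3 stood far above the other mutants, which in turn were all above the controls. The log2 fold change was 1.71 (SE 0.37, adjusted p = 0.00335 by edgeR), and 1.25 (adjusted p = 0.0045) without dcKO_hGFAP-Cre replicate 3.

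Junb, a Jun protein that pairs with Fos and FosB, did not pass the threshold. Junb (ENSMUSG00000052837, chromosome 8 from 84974484 to 84978718) was at 5.66, 8.03, 8.10 and 10.2 CPM in controls and 9.36, 7.75, 12.6 and 9.36 CPM in mutants 1 to 4. Only replicate 3 of the mutant exceeded every control. The log2 fold change was 0.29 (SE 0.19, adjusted p = 0.248 by edgeR). Exons of Junb overlap those of Prdx2 on the opposite strand, and since the strand setting of the counting is not stated, reads of the overlap cannot be assigned with certainty.

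The Egr genes encode zinc finger transcription factors that bind the same GC-rich site, and only Egr1 passed the threshold. Egr1 (ENSMUSG00000038418, chromosome 18 from 34859823 to 34864984) was at 15.2, 21, 16.2 and 22.7 CPM in controls 1 to 4 and at 41, 23.4, 44 and 55.8 CPM in mutants 1 to 4. Replicate 2 of the mutant was barely above the highest control, whereas the other 3 mutants were far from it. The means were 18.8 ± 3.62 and 41.1 ± 13.4 CPM (SD, n = 4 each), a 2.19-fold rise (log2 fold change 1.13, SE 0.24, adjusted p = 0.00612 by edgeR). Without replicate 2 of the mutant, the log2 fold change was 1.32 (adjusted p = 0.000191).

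Egr2 (ENSMUSG00000037868, chromosome 10 from 67535475 to 67542188) was at 3.45, 3.06, 3.22 and 3.37 CPM in control and 3.93, 3.18, 5.46 and 4.23 CPM in mutants 1 to 4. Here 3 of 4 mutants were above all controls and replicate 2 lay among them, with a log2 fold change of 0.36 (SE 0.18, adjusted p = 0.136). Egr3 (ENSMUSG00000033730, chromosome 14 from 70077203 to 70082614) was at 5.29, 7.25, 10.03 and 10.8 CPM in control and 7.57, 3.18, 7.61 and 6.94 CPM in mutants 1 to 4. The range of the controls of Egr3 contains 3 of the mutants, and replicate 2 of the mutant was the lowest sample. Its log2 fold change was -0.40 (SE 0.29, adjusted p = 0.291).

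Npas4 encodes a neuron-specific bHLH-PAS transcription factor that responds to calcium entry with little response to other stimuli. Npas4 (ENSMUSG00000045903, chromosome 19 from 4984355 to 4990316) was at 3.5, 4.98, 3.75 and 4.55 CPM in controls 1 to 4 and at 8.89, 6.48, 9.14 and 12.6 CPM in mutants 1 to 4. The groups did not overlap, with replicate 2 again the lowest mutant. The means were 4.19 ± 0.688 and 9.28 ± 2.53 CPM (SD, n = 4 each), a 2.22-fold rise (log2 fold change 1.15, SE 0.20, adjusted p = 0.000895 by edgeR).

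Arc, the only effector among the 10, acts in AMPA receptor endocytosis at excitatory synapses. Arc (ENSMUSG00000022602, chromosome 15 from 74669083 to 74672570) was at 4.19, 4.14, 4.02 and 2.71 CPM in control and 4.70, 5.13, 10.1 and 5.74 CPM in mutants 1 to 4. Replicate 3 of the mutant was far above the rest, and replicate 1 was just above the highest control. The rise was 1.72-fold (log2 fold change 0.78, SE 0.25, adjusted p = 0.0259 by edgeR). Without dcKO_hGFAP-Cre replicate 3 the log2 fold change was 0.47 (adjusted p = 0.0669). Leaving out control replicate 2, 3 or 4 gave 0.82, 0.81 or 0.64, with an adjusted p of 0.0505, 0.0528 or 0.0796, so the call was lost there while the size changed less.

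Nr4a1 encodes an orphan nuclear receptor, and Ier2 a nuclear protein of the early growth factor response. Nr4a1 (ENSMUSG00000023034, chromosome 15 from 101254269 to 101274795) was at 25.1, 23.3, 17.9 and 18.4 CPM in control and 14.9, 17.6, 23.8 and 16.7 CPM in mutants 1 to 4. Replicate 3 of the mutant reached the upper controls, and the other 3 mutants were below every control, with a log2 fold change of -0.21 (SE 0.16, adjusted p = 0.31). Ier2 (ENSMUSG00000053560, chromosome 8 from 84661331 to 84662852) was at 9.30, 8.97, 10.3 and 10.7 CPM in control and 9.28, 13.9, 14.1 and 10.2 CPM in mutants 1 to 4. Replicates 2 and 3 of the mutant were above all controls and the other 2 lay within their range, with a log2 fold change of 0.28 (SE 0.15, adjusted p = 0.167). Scaling by library totals in place of TMM, which moves the median over all genes from 0.02 to 0.15 (log2), gave 0.40 for Ier2 (adjusted p = 0.0486). With that scaling 6 of the 10 genes and 27.7% of all genes were called higher.

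Exact permutation tests were run on single genes, and differences between the genes themselves were not tested. For Fos, Fosb, Egr1, Arc and Npas4 the exact permutation p on both sides was 0.0286, the smallest that 4 samples against 4 allow. That value follows from the lack of overlap between the groups and adds nothing to it. The groups did not overlap in 34.4% of all genes either. For the other 5 it lay between 0.114 and 0.286.

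Among the mutants, replicate 3 was the highest in 8 of the 10 genes and replicate 4 in the other 2, Egr1 and Npas4. Replicate 2 was the lowest mutant in 6 genes, and replicate 1 in the other 4. Among the controls, replicates 1, 2 and 4 were each the highest in 3, 3 and 4 genes. Averaged over the 10 genes, the log2 CPM relative to the 8-sample mean of each gene was -0.45, -0.16, -0.37 and -0.25 in controls 1 to 4 and 0.20, -0.01, 0.69 and 0.37 in mutants 1 to 4. Replicate 3 is also the mutant with the highest sum of 6 astrocyte and radial glia markers, 2430 CPM against 1060 to 1410 CPM in the other mutants and 1520 to 1540 CPM in controls. The part of these cells in its higher values was not tested. Replicates 1 and 2, both high in choroid plexus markers, were not the highest mutant in any of the 10 genes. Without them, which leaves 2 mutants, 5 of the 10 genes passed the threshold as higher. Without replicates 1 and 3, the mutants highest in striatal markers, 4 did, Arc being lost (log2 fold change 0.53, adjusted p = 0.0887 by edgeR). Mutants 2 and 4, left in that fit, still summed to 437 and 559 CPM of striatal markers, against 302 to 384 CPM in controls. That fit thus did not remove the striatal difference, and the part of choroid plexus or striatal cells was not tested. Over all genes, the fits without replicates 1 and 2 and without replicates 1 and 3 called 8.06% and 13.3% as higher. In 3 of the 10 genes, Fosb, Junb and Egr3, the 4 mutants stood in the order of their striatal marker sums, as they did in 3.61% of all genes tested. That order rests in part on near ties. Junb was at 9.363 and 9.358 CPM in mutants 1 and 4, and Egr3 at 7.567 and 7.608 CPM in mutants 1 and 3. The striatal sums of mutants 1 and 3 were themselves close, at 809 and 819 CPM. Of Fosb, Junb and Egr3, Fosb alone passed the threshold. In the fit without replicates 1 and 3 its log2 fold change was 1.18 (adjusted p = 0.0225 by edgeR).

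**Figure D2:**
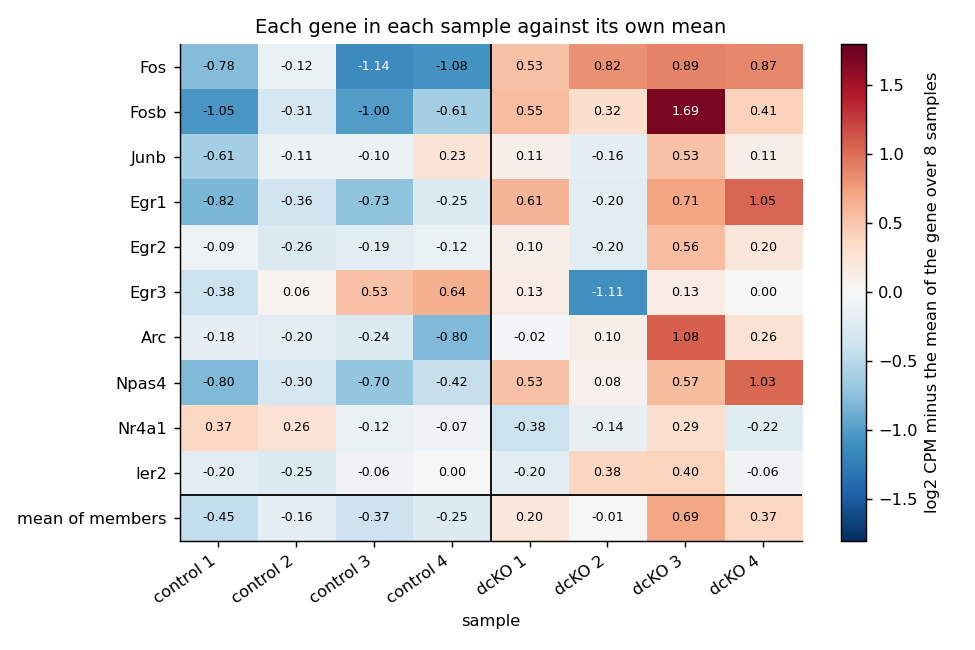
Log2 CPM of each of the 10 genes in each sample minus the mean of that gene over the 8 samples, as colour and value, with the average of the 10 genes in the bottom row. Controls are left and dcKO_hGFAP-Cre samples right of the vertical line, and replicate 3 of the mutant has the highest average, 0.69.

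The genes nearest to the average profile of the 10 were sought among the 16470 other tested genes with a symbol, by the root mean square difference in centred log2 CPM over the 8 samples. They were Fn3k, Mettl15, Tmem107, Klhdc1 and Spock3, at distances of 0.0981 to 0.12. The 10 genes themselves lay at 0.189 (Egr2) to 0.642 (Egr3) from their own average. None of the 5 nearest genes is an immediate early gene of the lists used here, and every mutant exceeded every control in each. Spock3, for example, was at 40.0 ± 2.88 CPM in control and 61.8 ± 5.49 CPM in dcKO_hGFAP-Cre cortex (SD, n = 4 each). These 5 were picked for this likeness, which is not a test.

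Levels of different genes were compared as CPM per kb of annotated exon. In control cortex, Ier2 (6.44 CPM per kb), Nr4a1 (6.04), Egr1 (4.19) and Junb (3.47) were the most abundant of the 10, and Fosb (0.0871) was the least. In dcKO_hGFAP-Cre cortex Egr1 came first, at 9.16 CPM per kb, followed by Ier2 (7.81), Nr4a1 (5.20), Junb (4.24) and Fos (3.95). These are levels of a whole tissue, and the neighbours Ier2 and Nr4a1 in control differ by less than the spread between samples.

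The nearest relatives of the 10 genes made a list of 11 genes, and 3 of these fell, 2 rose and 6 did not pass the threshold. Over all genes tested 18.9% fell and 18.6% rose. The 3 that fell were each more abundant per kb of exon in control cortex (8.92 to 24.8 CPM per kb) than any of the 10. The same held for the relatives Jund and Jun, which did not pass the threshold, and for Ier5, which rose. High abundance was thus not particular to the relatives that fell. Nr4a3 and Nr4a2 encode the other nuclear receptors of the NR4A family, and Fosl2 encodes the Fos protein FRA2. Nr4a3 was at 82.6, 113, 108 and 103 CPM in control and 22.4, 28.7, 39.9 and 38 CPM in mutants 1 to 4, a 3.14-fold fall (log2 fold change -1.65, SE 0.17, adjusted p = 5.31e-05 by edgeR). Fosl2 was at 86.3 ± 4.52 and 41.8 ± 9.09 CPM (SD, n = 4 each), with a log2 fold change of -1.04 (SE 0.13, adjusted p = 0.000109). Nr4a2 was at 101 ± 8.08 and 58.2 ± 8.10 CPM, with a log2 fold change of -0.79 (SE 0.10, adjusted p = 0.000119). Nr4a3, Fosl2 and Nr4a2 each had all mutants below all controls. In the same libraries the 8 cortical excitatory neuron markers had a median log2 fold change of -0.90, with Tbr1 (0.07) and Bcl11b (0.13) not past the threshold. The part of excitatory neurons in the falls of Nr4a3, Fosl2 and Nr4a2 was not tested.

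The 2 relatives that rose were Ier5l (log2 fold change 0.91, adjusted p = 0.000137) and Ier5 (0.37, adjusted p = 0.0358), both related to Ier2. Replicate 4 of the mutant lay among the controls in Ier5, whose call held in only 2 of the 8 fits with 1 library left out and was lost with limma-voom, whereas that of Ier5l held in all 8. The log2 fold changes of Jun, Jund, Fosl1, Egr4, Ier3 and Batf3 were 0.24, 0.10, -0.07, 0.33, 0.27 and 1.04, none past the threshold. Batf3, another AP-1 partner, reached at most 1.13 CPM in any sample.

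**Figure D3:**
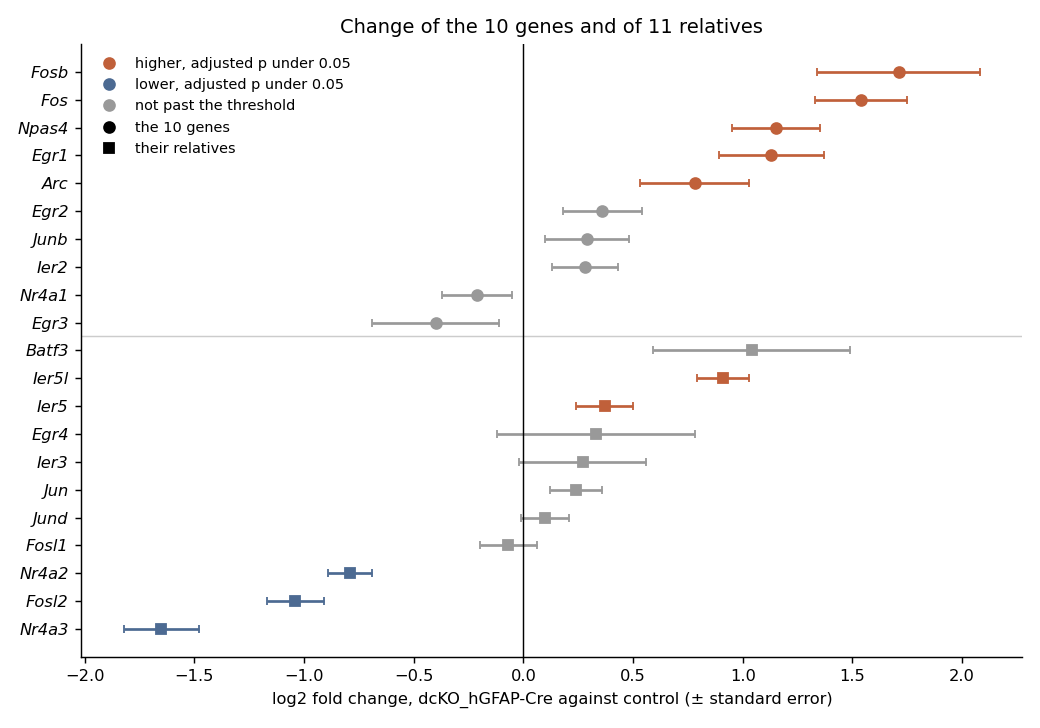
Log2 fold change of dcKO_hGFAP-Cre against control (horizontal axis) with its SE for the 10 genes (circles, top) and their 11 relatives (squares, bottom), coloured by whether the adjusted p was under 0.05. The 10 genes run from 1.71 (Fosb) to -0.40 (Egr3), and Nr4a3, Fosl2 and Nr4a2 lie lowest among the relatives.

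The make-up of the Fos, Egr and NR4A families differed between the groups, which is given here as a description with no test. In the Jun family the shares overlapped. Junb held 5.34 to 10.2% of its CPM per kb in controls and 6.25 to 9.56% in mutants, and Jund 55.8 to 60.5% and 53.6 to 60.0%. Fos held 9.91, 13.2, 7.22 and 7.81% of the CPM per kb of the 4 Fos family genes in controls 1 to 4 and 31.1, 33.9, 32 and 32.4% in mutants 1 to 4. Fosl2 held 59.2 to 66.0% in control and 30.8 to 40.5% in mutant samples. The sum of the Fos family was 13.2 to 15.9 CPM per kb in controls and 10.6 to 13.3 CPM per kb in mutants. In the Egr family, the share of Egr1 was 41.3 to 53.2% in control and 57.7 to 73.2% in mutant samples, so the groups did not overlap. Nr4a1 held at most 15.9% of the NR4A family in any control and 16.9 to 26.5% in mutants, while the family sum was 44.8 to 50.9 CPM per kb in controls and 22.0 to 28.1 CPM per kb in mutants. The higher share of Nr4a1 thus went with lower Nr4a2 and Nr4a3, as Nr4a1 itself had a log2 fold change of -0.21.

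**Figure D4:**
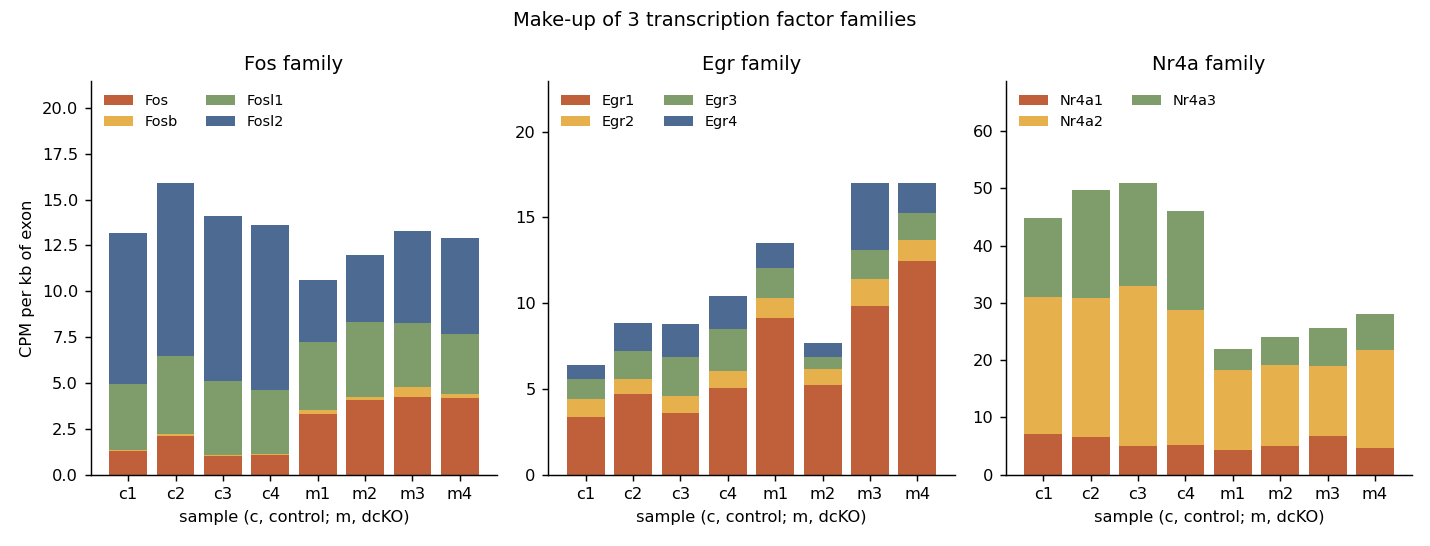
CPM per kb of exon (vertical axis, from 0) of the Fos, Egr and Nr4a family genes, stacked per sample, for controls 1 to 4 (c1 to c4) and mutants 1 to 4 (m1 to m4). Fos takes a larger part of its family in all 4 mutants, and the Nr4a sum is lower in all 4 mutants than in any control.

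Other primary response genes moved in both directions. Of 32 such genes 31 were tested, and 9 fell, 5 rose and 17 did not pass the threshold, with a median log2 fold change of -0.03. Calls were made in 45.2% of these genes, against 37.5% of all genes, of which 18.9% were lower and 18.6% higher. The falls with the smallest p were those of Sgk1, a serum-induced kinase (log2 fold change -1.03), Klf6, a zinc finger factor (-0.87), Myc (-0.88) and Homer1, a scaffold of the postsynaptic density (-0.46). The rises with the smallest p were those of Ccn1, a matrix protein (0.89), Gadd45g, a growth arrest gene (0.96), Rgs2, a regulator of G protein signaling (1.32), and Klf4 (0.88). The adjusted p of these 8 genes was 0.00594 or less, and each separated the groups. Rgs2 was at 78.5, 47, 109 and 63.8 CPM in mutants 1 to 4, the order of the striatal marker sum, and the part of striatal neurons in it was not tested.

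Genes of the late response, which follow in stimulated neurons once the early factors are made, were also called in both directions. Of 20, 5 fell and 5 rose, with a median log2 fold change of -0.06. The shares of all genes were 18.9% lower and 18.6% higher. Inhba, an activin subunit, fell 4.42-fold, from 10.6 ± 1.5 to 2.37 ± 0.924 CPM (SD, n = 4 each; log2 fold change -2.14, SE 0.24, adjusted p = 4.02e-05 by edgeR). Vgf, a neuropeptide precursor, fell 2.01-fold (log2 fold change -1.01), followed by Nptx2, a secreted pentraxin (-0.58), and Stac (-0.49). Nrn1, which encodes neuritin (0.90), Tac1 (2.30), Scg2 (0.34) and Rasgrp1 (0.49) were the 4 rises with the smallest p. In Scg2 and Rasgrp1 the groups overlapped (exact permutation p = 0.0857 for each), and with 1 library left out their calls held in 1 and 2 of 8 fits. The call of Stac held in 5 of 8. With the replicate block or the lane block 3 late response genes rose in place of 5. Those fits called 17.7% and 19.4% of all genes higher. Tac1 encodes substance P and is a gene of striatal projection neurons as well, and it was at 36.0, 14.1, 47.7 and 26.2 CPM in mutants 1 to 4, the same order of samples as the sum of striatal markers. The part of striatal neurons in the rise of Tac1 was not tested. Bdnf, a target of Npas4 and CREB, was at 3.5 ± 0.457 CPM in control and 2.79 ± 0.414 CPM in mutants (log2 fold change -0.33, adjusted p = 0.167).

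Of 18 factors and coactivators that act on immediate early promoters, 2 fell, 1 rose and 15 did not pass the threshold. Called in either direction were thus 16.7% of them, against 37.5% of all genes (18.9% lower and 18.6% higher). Mef2c, a MEF2 factor of cortical neurons, was at 1680 ± 145 CPM in control and 619 ± 32.1 CPM in dcKO_hGFAP-Cre cortex (SD, n = 4 each), a 2.71-fold fall (log2 fold change -1.44, SE 0.08, adjusted p = 3.99e-07 by edgeR). Crtc3, a CREB coactivator, fell with a log2 fold change of -0.30, a call that held in 3 of 8 fits with 1 library left out and was lost with the replicate block. Elk1, a partner of SRF, rose with 0.32, and its call held in all 8. Srf and Creb1, whose products bind CArG boxes and cAMP response elements, had log2 fold changes of 0.01 and -0.28 (adjusted p = 0.965 and 0.0916).

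Among 21 genes of the calcium and ERK cascades, 11 fell and 3 rose, with a median log2 fold change of -0.25. By the same test 18.9% of all genes were lower and 18.6% higher. The CaM kinase genes Camk2b (-0.73), Camkk1 (-0.90), Camkk2 (-0.66) and Camk2g (-0.37) had the smallest p among those that fell, and Camk2d (0.46), Camk2a (0.24) and Rps6ka5 (0.31) were the 3 that rose. The groups overlapped in Rps6ka5, whose call held in 3 of 8 fits with 1 library left out and was lost with the replicate block. Of 8 repressors of the response, 2 fell and 0 rose in edgeR's test, and at an unadjusted p under 0.05 the counts were 3 and 0, where 23.0% of all genes were lower and 24.2% higher. DESeq2 and limma-voom also gave 0 that rose. Nab1, a corepressor that binds Egr proteins, had a log2 fold change of -0.34, and Hdac4, a corepressor of MEF2 factors, one of -0.43.

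Heat shock genes respond to cell stress, as many immediate early genes do. Of 10 heat shock genes 9 were tested, and 3 rose, 2 fell and 4 did not pass the threshold, with a median log2 fold change of 0.01. Among all genes 18.6% rose and 18.9% fell. With at least 10 counts in every sample 1 rose, since Hspa1a and Hspa1b were then not tested. That fit called 19.8% of all genes higher. Hspa1b, an inducible chaperone, was at 0.506, 0.246, 0.764 and 0.660 CPM in control and 1.28, 2.12, 2.63 and 1.99 CPM in mutants 1 to 4 (log2 fold change 1.84, adjusted p = 0.000903 by edgeR), and Hspa1a rose with a log2 fold change of 1.30. Hspa1a and Hspa1b are near-identical copies, so how their shared reads were divided is uncertain. Hspe1 rose (0.56), whereas Hsph1 (-0.76) and Hspd1 (-0.31) fell. Mitochondrial genes took a share of counts of 2.06 to 3.23% in controls and 3.57 to 5.47% in mutants, and the groups did not overlap (exact permutation p on both sides = 0.0286, the smallest possible). Microglia markers, whose cells also express Fos and Egr1, summed to 98.4 to 131 CPM in controls and 183 to 222 CPM in mutants, with 6 of 8 higher. Of 6 endothelial markers 4 were lower, and of 5 oligodendrocyte precursor markers 5 were. Red blood cell markers summed to 53.5 to 73.1 CPM in controls and 37.1 to 130 CPM in mutants. The part of cell stress, microglia, interneurons and striatal neurons in the rise of the 5 genes was not tested.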

How the data were processed

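RNA from 8 P3 cortices was sequenced from TruSeq libraries. The authors aligned reads to mm10 and counted them per gene with featureCounts, and the deposited values are raw counts. The aligner, annotation release, strand setting and treatment of reads with several matches are not given in the sources used here. Groups came from the sample labels. Each sequencing lane held both groups, and p-values measure the spread between these samples, which the labels do not tie to litters.

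Counts were tested in R 4.3.3 with edgeR 4.0.16 (filterByExpr with a minimum count of 10, TMM scaling, quasi-likelihood fit on all 8 samples, Benjamini-Hochberg adjustment over 16525 genes, threshold 0.05). CPM are TMM-normalized, and CPM per kb divides by the exon length of GENCODE. The SE of a log2 fold change was derived from the test, as its absolute value divided by the square root of the quasi-likelihood F. Alternatives used limma 3.58.1 (voom), DESeq2 1.42.0, other scaling and filters, replicate and lane blocks, and fits with libraries left out. Tested on simulated data with 200 genes changed 2-fold, edgeR recovered 78.5% and 8.19% of its calls were false. False calls made up 6.98% with limma-voom, 12.78% with the replicate block and 16.92% with DESeq2. The simulation changed 200 of 16353 genes, whereas 37.5% of all genes were called in the data, so these shares do not carry over to the calls given here. Total counts were 21126713 to 32110285, and counting error is the only error that the 3-count limit covers.

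The genes and lists were chosen with earlier results of these data known. Named were the 10 genes, their 11 relatives, Smarcc1 and Smarcc2, the 5 nearest profiles, and of every other list at most 4 genes lower and 4 higher with the smallest p, at a mean of at least 1 CPM. Bdnf, Srf and Creb1 fall outside that rule and were chosen after their values were seen. So do Tbr1 and Bcl11b, named as the 2 excitatory neuron markers that did not pass the threshold. Replicate numbers were checked as pairs by correlating deviations from group means of same-numbered samples. The 4 correlations were 0.171, -0.068, 0.213 and -0.024, so the numbers were not taken as pairs.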

Additional observations from a re-analysis of the deposited data

Results flagged for a closer look

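Of 42 groups of 4 samples checked, 5 held a sample far from the other 3 by Dixon's test at the 95% level, where chance gives about 1 in 20 groups, or 2.1. Fosb in dcKO_hGFAP-Cre replicate 3 was at 3.21 CPM, against 1.19 to 1.41 CPM in the other mutants. Egr3 in dcKO_hGFAP-Cre replicate 2 was at 3.18 CPM, against 6.94 to 7.61 CPM. Arc in control replicate 4 was at 2.71 CPM, against 4.02 to 4.19 CPM in the other controls. Of the relatives, Nr4a2 in control replicate 3 was at 113 CPM, against 95.4 to 98.2 CPM, and Ier3 in control replicate 3 was at 2.19 CPM, against 1.06 to 1.21 CPM.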

How the results depend on the processing

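Fos, Egr1 and Npas4 stayed higher and past the threshold in all 18 alternatives, and Fosb in the 17 in which it was tested, since its counts failed a minimum of 10 in every sample. No gene of the 10 changed sign. The number of the 10 that rose was 4 to 5 with 1 library left out (13.3 to 20.1% of all genes). It was 6 with library totals and 4 without the 2 mutants highest in striatal markers, and 0 fell in any of these fits. Arc was lost without control replicate 2, 3 or 4 and without dcKO_hGFAP-Cre replicate 3. It was also lost without the 2 mutants highest in striatal markers (log2 fold change 0.53), whereas Ier2 passed with library totals (0.40). Replicate numbers did not pair the samples. With the replicate block 5 of the 10 rose, 3 late response genes and 2 upstream factors were higher, and the lane block gave the same 2 counts, 3 and 2. Over all genes, 17.7% were higher with the replicate block and 19.4% with the lane block. With limma-voom, 1 relative and 2 upstream factors were higher. With library totals, 3 late response genes, 1 upstream factor and 1 heat shock gene were lower and 3 upstream factors higher, while over all genes 2102 were lower and 4584 higher, against 3128 and 3074 with TMM. Without a filter 3 late response genes were higher, and with a minimum of 10 counts in every sample 2 upstream factors and 1 heat shock gene were. Of all genes tested, 10.2% were higher without a filter and 19.8% with that minimum. Chosen after seeing the data were the fits without 2 mutants. Without the 2 high in choroid plexus markers, 1 relative was higher, 2 late response genes, 1 upstream factor, 7 kinase cascade genes, 1 repressor and 1 heat shock gene were lower, 0 upstream factors and 0 kinase cascade genes were higher, and over all genes 1581 were lower and 1388 higher. Without the 2 highest in striatal markers, 1 relative, 2 late response genes, 2 upstream factors and 1 kinase cascade gene were higher. In that fit 3 late response genes, 1 upstream factor and 1 repressor were lower. It called 13.3% of all genes higher and 14.6% lower. With 1 library left out in turn, the relatives that were higher numbered 1 to 3, late response genes lower 3 to 5 and higher 2 to 4, upstream factors lower 1 to 5 and higher 1 to 2, kinase cascade genes lower 9 to 13 and higher 1 to 3, repressors lower 2 to 3, and all genes lower 2375 to 3273 and higher 2199 to 3308. The causes of these shifts were not tested. Depth limits the values of Fosb, at 9 to 17 counts in controls.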
